A study of Mus musculus with 6 samples.

Results

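Genes of the mouse major histocompatibility complex (MHC, called H2 in mice) and of the machinery that loads its molecules were examined in inguinal lymph nodes. They were taken by symbol from the deposited expression table: every symbol that starts with H2-, without pseudogenes marked -ps, plus B2m, Cd74, Ciita, Nlrc5, Tap1, Tap2, Tapbp, Erap1, Psmb8, Psmb9, Psmb10, Cd1d1 and Mr1. Of 56 such entries, 5 had no read in any library, which left 51 members among 50559 genes in the table. Of the 51, 38 had a mean of at least 1 CPM (reads per 1000000 assigned reads) over the 6 libraries and were tested, among 14873 tested genes in all. One group was 3 samples labelled Naringin, from mice given naringin, a citrus flavanone glycoside, in their food every day at 200 mg/kg. The other was 3 samples labelled Control. The labels do not give the strain, sex or age of the mice, how long they were fed or what the Control mice ate. They also do not state whether each sample was a different mouse, so p-values measure the spread between these samples, which may be partly technical.

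MHC class I molecules sit on nearly all nucleated cells and show peptides from the cell's own proteins to CD8 T cells. Their heavy chain pairs with beta-2 microglobulin, and the peptides are cut by the proteasome, carried into the endoplasmic reticulum by the TAP transporter, trimmed by ERAP1 and loaded with the help of tapasin. MHC class II molecules are made mainly by B cells, dendritic cells and macrophages, which a lymph node holds in large numbers, and show peptides from taken-up proteins to CD4 T cells. Their chains assemble with the invariant chain, CD74, which is later exchanged for peptide under the control of the editors H2-DM and H2-O. Class II genes depend on the coactivator CIITA, and class I genes in lymphocytes largely on its relative NLRC5. Both coactivators, and many class I genes, are inducible by interferon gamma.

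Promoter sequences of 6 members are shown: 5 of the most abundant chains of both classes, whose shared control elements are well described, and H2-Q10, which had the smallest p of all members. Each is the 200 bases before the transcription start site given by RefSeq on build GRCm38.p6, 5′ to 3′ on the gene's strand. Capitals mark matches, on either strand, to GGGGA, any base, TCCC (a kappaB site, bound by NF-kB), GAAA, any 2 bases, GAAA (a core of the interferon-stimulated response element), CCAAT (the core of the Y box, bound by NF-Y) or AGCAAC, any base, GATG (a form of the class II X box, bound by RFX).
H2-K1: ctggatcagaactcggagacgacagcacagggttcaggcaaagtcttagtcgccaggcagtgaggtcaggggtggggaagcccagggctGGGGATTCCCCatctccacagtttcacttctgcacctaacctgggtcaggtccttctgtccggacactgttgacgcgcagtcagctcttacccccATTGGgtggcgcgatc
H2-D1: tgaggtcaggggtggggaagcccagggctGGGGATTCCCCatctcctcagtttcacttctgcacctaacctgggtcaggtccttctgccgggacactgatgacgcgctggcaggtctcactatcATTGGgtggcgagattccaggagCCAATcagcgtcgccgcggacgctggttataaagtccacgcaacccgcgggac
H2-Q10: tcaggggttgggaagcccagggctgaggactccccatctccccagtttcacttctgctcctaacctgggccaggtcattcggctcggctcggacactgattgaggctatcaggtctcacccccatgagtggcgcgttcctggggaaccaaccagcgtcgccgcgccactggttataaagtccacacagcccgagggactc
B2m: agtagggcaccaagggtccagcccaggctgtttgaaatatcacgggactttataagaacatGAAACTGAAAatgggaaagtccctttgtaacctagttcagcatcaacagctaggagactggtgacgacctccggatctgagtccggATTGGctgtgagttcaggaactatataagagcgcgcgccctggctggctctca
H2-Aa: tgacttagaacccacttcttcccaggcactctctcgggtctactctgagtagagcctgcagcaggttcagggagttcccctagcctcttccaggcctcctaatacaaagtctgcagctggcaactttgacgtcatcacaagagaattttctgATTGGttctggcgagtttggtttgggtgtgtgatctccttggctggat
H2-Eb1: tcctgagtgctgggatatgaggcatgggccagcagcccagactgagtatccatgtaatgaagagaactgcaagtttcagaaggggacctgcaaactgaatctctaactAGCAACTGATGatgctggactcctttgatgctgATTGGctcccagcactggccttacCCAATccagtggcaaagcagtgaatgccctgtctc
The classical class I genes H2-K1 (chr17:34000348-34000547, minus strand) and H2-D1 (chr17:35262894-35263093, plus strand) each held an overlapping pair of kappaB matches, one on each strand, and CCAAT cores. H2-K1 had 1 core, 16 bases before its start, and H2-D1 had 2, 76 and 53 bases before. Bases after the start were not searched, so these counts depend on where each window ends. B2m (chr2:122147487-122147686, plus strand) held a match to the interferon element letters 139 bases before its start and a CCAAT core 53 bases before. Of the class II genes, H2-Aa (chr17:34287824-34288023, minus strand) held a CCAAT core. H2-Eb1 (chr17:34305667-34305866, plus strand) held an X box match 92 bases before its start and CCAAT cores 59 and 35 bases before. H2-Q10 (chr17:35469889-35470088, plus strand) held no match to the letters of any of the 4. Forms of these elements with other letters were not searched, so a promoter without a match may still hold one. RefSeq gave such a window for 27 of the 38 tested members. CCAAT lay in 20 of the 27 (74.1%), against 29.3% of 32851 mouse promoters searched the same way. The kappaB letters lay in 4 (H2-K1, H2-D1, H2-Q6 and H2-Q7), against 0.234% of all. The interferon element letters lay in 3 (B2m, H2-T22 and H2-T23), against 2.27%, and the X box letters in 2 (H2-Eb1 and H2-Eb2), against 0.0487%. Many members are copies of one another, so these matches are not independent. A match is a run of letters, and no binding was measured here.

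Between 13074180 and 14976422 reads per library were assigned to genes, so 1 read was worth 0.0668 to 0.0765 CPM. The members together took 2.36% to 2.94% of the reads. Markers of lymphocytes were high, with 3706 to 4559 CPM summed over 8 B cell genes and 1321 to 1777 CPM over 8 T cell genes, while the keratinocyte genes Krt5 and Krt14 had at most 4 reads in a library. Control 3 stood apart from the other libraries. Cytosolic ribosomal protein genes took 12.3% of its reads, against 8.48% to 9.87% in the other 5. Its difference from the mean of the other 5 libraries, on log2(CPM + 1), had a median of 0.21 in the shortest 3490 tested genes by exon length and of -0.36 in the longest 3488. The log2 folds without Control 3 are therefore shown for all 38 tested members in the plot of log2 folds, and for many of them in the text. In bulk tissue, fewer cells of a type and less RNA per cell cannot be told apart.

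Levels were compared between genes per kilobase of exon, with exon lengths from GENCODE M21, which gave one for 37 of the 38 tested members. A length covered all annotated exons of every transcript of a gene, so it can exceed that of the transcripts made here. The order of genes depends on it. In CPM without the length, means over 6 libraries were 4594 for Cd74, 3165 for H2-K1, 2682 for B2m and 2589 for H2-Aa. Per kilobase the 2 invariant partners came first. B2m, the class I light chain, averaged 3044 ± 270 CPM per kilobase in Naringin and 3194 ± 384 in Control (SD, n = 3 each). Cd74, the class II invariant chain, averaged 2668 ± 269 CPM per kilobase in Naringin and 2805 ± 294 in Control, so their ranges over libraries met. The classical chains followed: H2-K1, H2-D1 and H2-Eb1 lay near each other, with means over 6 libraries of 1077, 988 and 980.0 CPM per kilobase and overlapping ranges. H2-Aa and H2-Ab1, the chains of the class II molecule I-A, had 682 and 661 CPM per kilobase, also within each other's range. Below a gap came the editor chain H2-DMb2 at 254 CPM per kilobase and the nonclassical class I genes H2-Q4 at 191 and H2-T23 at 166. The coactivators Ciita and Nlrc5 stood at 32.7 and 31.4 CPM per kilobase and did not differ beyond their spread. At the low end were Mr1 at 2.94 and H2-Q10 at 1.53 CPM per kilobase.

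**Figure D1:**
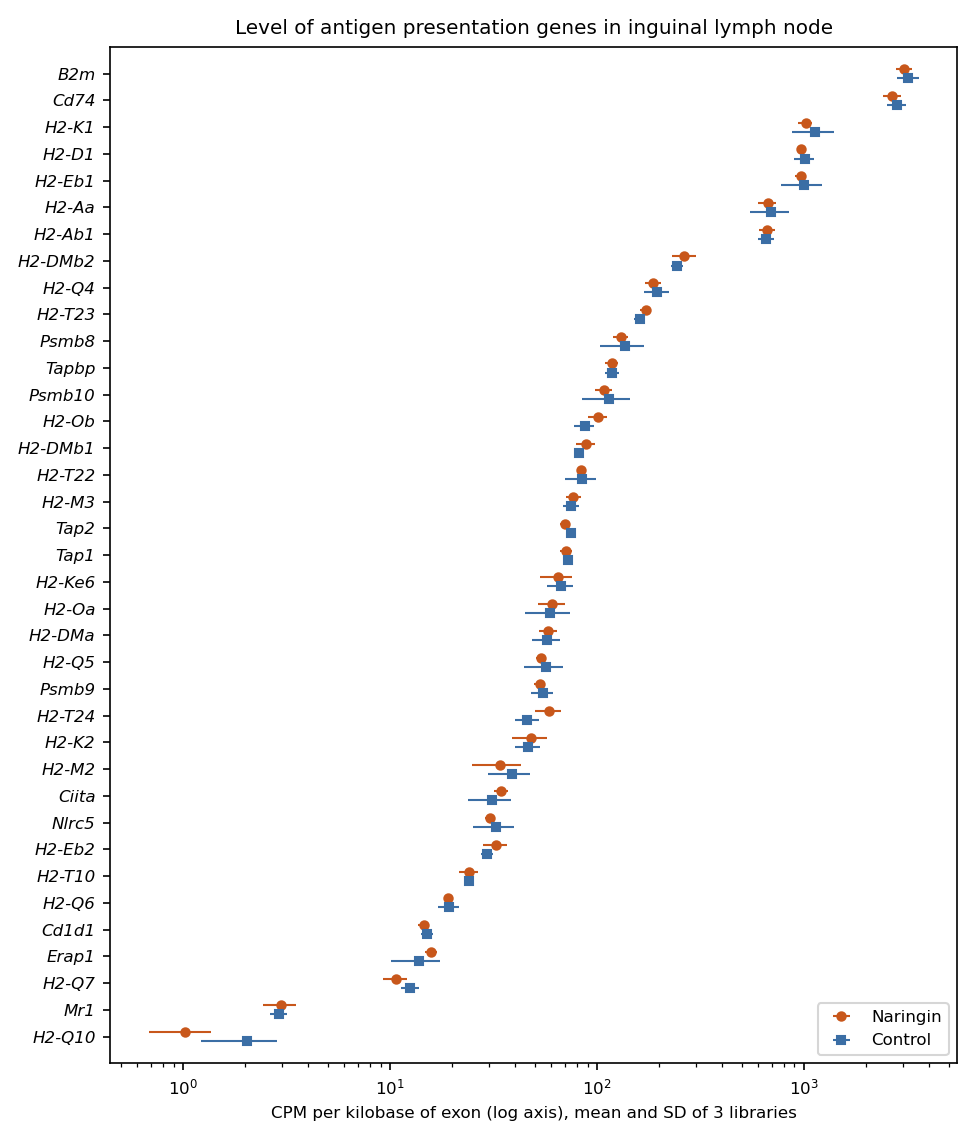
Mean and SD over 3 libraries of the level of 37 tested members, in CPM per kilobase of exon on a log axis, for Naringin (circles) and Control (squares). B2m and Cd74 lead in both groups, and Mr1 and H2-Q10 stand lowest in both.

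No member passed the test between Naringin and Control, and in every tested member the libraries of the groups overlapped. The test was limma on log2(CPM + 1), fitted over all 14873 genes, 2-sided, with Benjamini-Hochberg adjustment. It called 0 of the 38 members, as it called 0 of all tested genes (0%), and the smallest limma adjusted p of a member was 0.9996. At an unadjusted limma p under 0.05 there was 1 member, H2-Q10, against 1.43% of all tested genes (0.975% higher and 0.457% lower in Naringin). On whole reads recovered from the CPM values, the count tests edgeR and DESeq2 also called 0 members, against 0% and 0.0202% of all tested genes. Each had 1 member at an unadjusted p under 0.05, against 1.57% of all tested genes in edgeR and 1.53% in DESeq2. The 3 Naringin values overlapped the 3 Control values in all 38 tested members, where 5.65% of all tested genes had groups that did not overlap (3.36% higher and 2.29% lower in Naringin). The 95% intervals limit the size of the difference given the spread between these samples, and are not adjusted for the number of genes. In 37 of the 38 the 95% interval lay within 1 log2 unit of 0, a 2-fold change, and the median distance from the estimate to either end was 0.34 log2 units. Of the 38, 23 had a log2 fold below 0, against 43.3% of all tested genes, and 15 above 0, against 56.7%. Without Control 3 it was 14 below 0, against 49.7%. In that fit limma called 0 members, against 0.00672% of all tested genes, and 2 members, H2-Q5 and Nlrc5, had an unadjusted p under 0.05, both lower in Naringin. Of all tested genes 6.68% did so in that direction and 2.68% in the other.

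**Figure D2:**
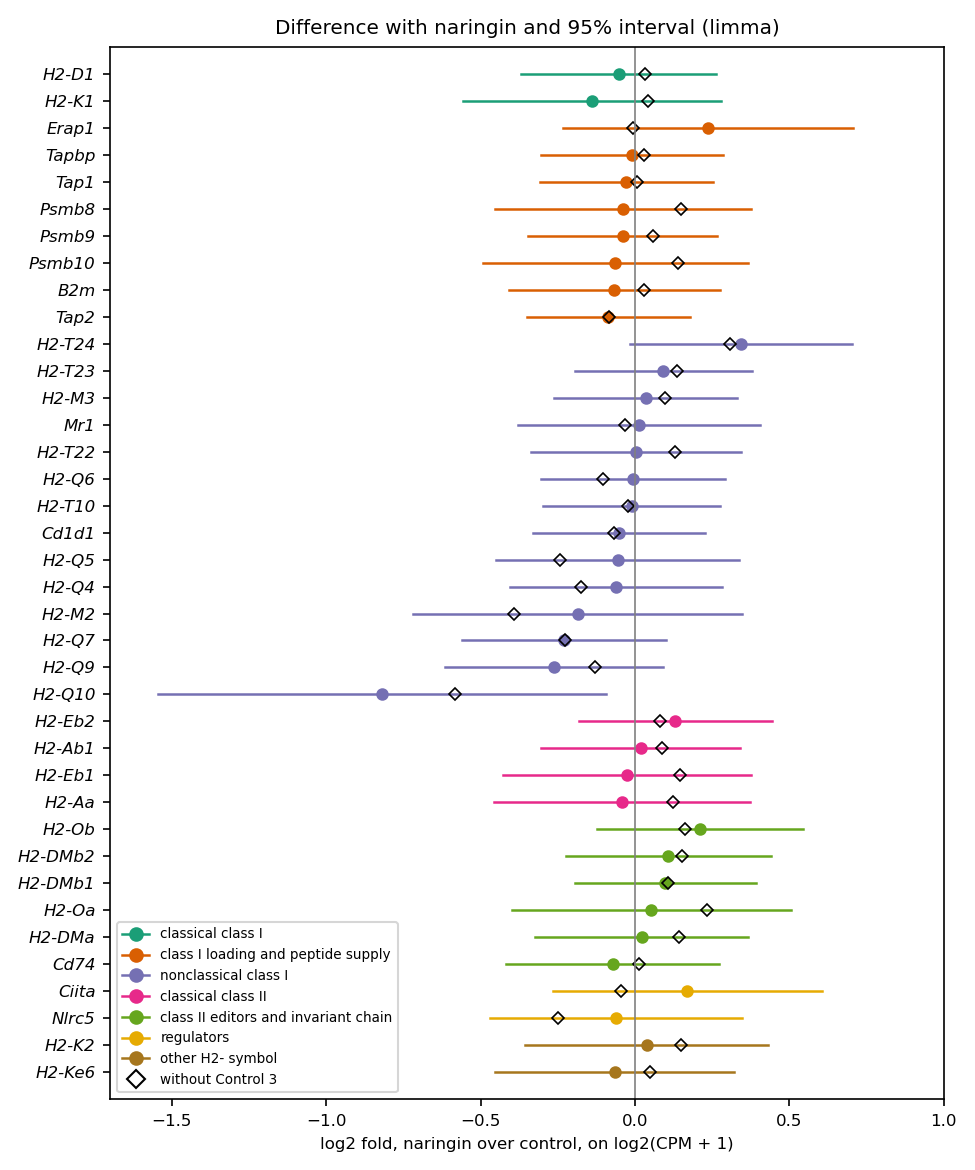
Log2 fold of Naringin over Control with its 95% limma interval for the 38 tested members, coloured by role, and as open diamonds the log2 fold without Control 3. Of the 38 intervals, 37 hold 0, and the interval of H2-Q10 runs from -1.55 to -0.09.

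The classical class I genes, H2-K1 and H2-D1, encode the heavy chains that present peptides to most CD8 T cells. H2-K1 had 2787, 2946 and 3237 CPM in Naringin 1 to 3, against 2963, 2836 and 4224 CPM in Control 1 to 3. The Naringin values lay around those of Control 1 and 2, and Control 3 was the highest library by a wide gap. The log2 fold was -0.14 ± 0.18 (SE), with a 95% interval of -0.56 to 0.28, and 0.04 without Control 3. H2-D1 had 2494, 2423 and 2569 CPM in Naringin, against 2519, 2363 and 2914 CPM in Control. Control 3 was again on top, Control 2 was lowest, and the log2 fold was -0.05 ± 0.14 (SE), or 0.03 without Control 3. The sum of the 2 genes was 5485 ± 281 CPM in Naringin and 5939 ± 1048 CPM in Control (SD, n = 3 each). These genes, like the H2-Q and H2-T families, are close paralogs, and the submitters' notes do not say how shared reads were assigned, so the level of each gene is uncertain. The MHC haplotype of the mice is not labelled either.

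Of the partners of class I, none passed the test. B2m had 2817, 2673 and 2363 CPM in Naringin, against 2590, 2523 and 3126 CPM in Control. Naringin 3 was the lowest and Control 3 the highest library, and the log2 fold was -0.07, with a 95% interval of -0.41 to 0.28, or 0.03 without Control 3. Tap1, one chain of the peptide transporter, had 359, 402 and 406 CPM in Naringin, against 394, 379 and 416 CPM in Control. Its log2 fold was -0.03, with a 95% interval of -0.31 to 0.25, and that of its partner Tap2 was -0.09, with a 95% interval of -0.35 to 0.18. Tap2 averaged 266 ± 15.3 CPM in Naringin and 282 ± 5.89 CPM in Control (SD, n = 3 each), and Tapbp, the tapasin gene, 428 ± 30.1 CPM in Naringin and 431 ± 33.9 CPM in Control.

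The 3 immunoproteasome subunits, which replace standard catalytic subunits and favour class I peptides, had their highest values in the same library. Psmb8 had 399, 460.4 and 463 CPM in Naringin, against 405, 388 and 588 CPM in Control. Psmb9 had 181, 204 and 197.5 CPM in Naringin, against 189, 184 and 228 CPM in Control. Both sets of values overlapped. Psmb10 averaged 184 ± 16.6 CPM in Naringin and 196 ± 51.0 CPM in Control (SD, n = 3 each). In all 3 the highest library was Control 3, at 1.39, 1.19 and 1.44 times the mean of the other 5 for Psmb8, Psmb9 and Psmb10. Their log2 folds of -0.04, -0.04 and -0.06 were 0.15, 0.06 and 0.14 without Control 3. Erap1, the peptide trimmer, went the other way: 121, 117 and 107 CPM in Naringin, against 116, 114 and 69.1 CPM in Control. Its lone low library was Control 3, and its log2 fold of 0.24 ± 0.20 (SE) was -0.0059 without it. Over the 8 genes of loading and peptide supply the median log2 fold was -0.04, beside 0.02 over all tested genes, with 7 below 0 and 1 above. Without Control 3 the median was 0.03.

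**Figure D3:**
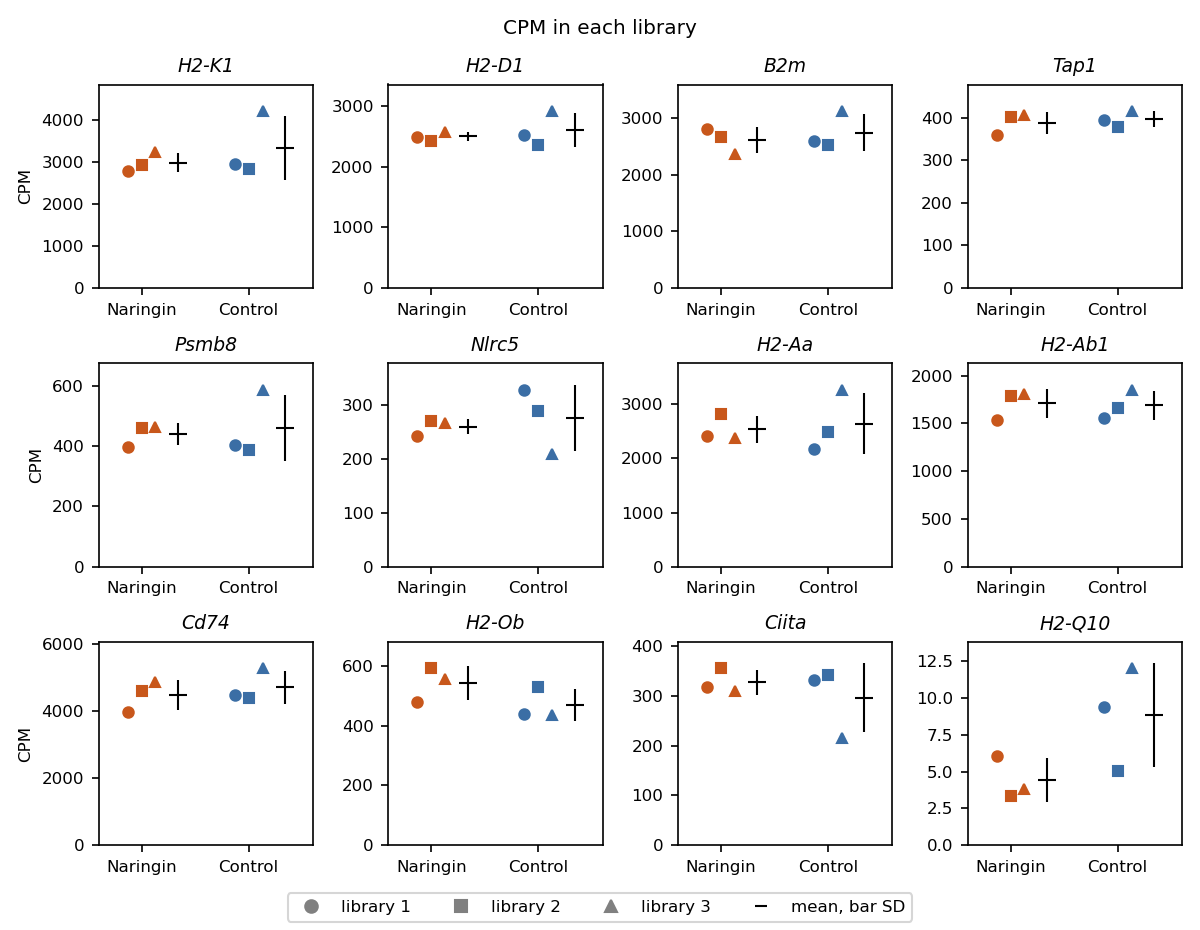
CPM in each library for 12 members, with Naringin left of Control, a symbol for each library number and the mean with SD as a bar. Control 3 (triangle) is the highest library for H2-K1, H2-D1, B2m and Psmb8 and the lowest for Nlrc5 and Ciita.

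The nonclassical class I genes, most of them little variable and specialised in what they present, made the largest group, with 24 members and 14 tested. Their median log2 fold was -0.03, with 9 below 0 and 5 above, and -0.09 without Control 3. H2-Q10, which encodes a secreted class I molecule made mainly in liver, had 6.10, 3.34 and 3.85 CPM in Naringin (91, 50 and 55 reads), against 9.41, 5.06 and 12.0 CPM in Control (123, 70 and 180 reads). Naringin 2 and 3 were below every Control library, but Naringin 1 was above Control 2. The log2 fold was -0.82 ± 0.32 (SE), with a limma p of 0.0314 that adjusted to 0.9996 and a range from -1.13 to -0.58 when single libraries were left out. H2-T24 had 108, 146 and 130.2 CPM in Naringin, against 116, 90.7 and 95.2 CPM in Control. Naringin 1 lay within the Control range, and the log2 fold was 0.34, with a 95% interval of -0.02 to 0.70.

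Qa-2 is the nonclassical molecule encoded by genes of the H2-Q6 to H2-Q9 stretch. H2-Q9 had 46.0, 39.5 and 45.7 CPM in Naringin, against 49.95, 45.7 and 63.6 CPM in Control. H2-Q7 had 44.5, 40.1 and 52.0 CPM in Naringin, against 58.9, 48.0 and 53.5 CPM in Control. For H2-Q9 the Naringin values lay low in the joint range, with Naringin 1 just above Control 2. For H2-Q7 Naringin 1 and 2 were below every Control library, but Naringin 3 was above Control 2. The log2 folds were -0.26 for H2-Q9 and -0.23 for H2-Q7. Control 3 was the highest library for H2-Q9, at 1.4 times the mean of the other 5, and without it the log2 folds were -0.13 for H2-Q9 and -0.23 for H2-Q7. Their near copy H2-Q6 had a log2 fold of -0.0054, at 39.9 ± 0.989 CPM in Naringin and 40.2 ± 4.65 CPM in Control (SD, n = 3 each). H2-T23, whose product Qa-1 is a ligand of the CD94/NKG2 receptors of natural killer cells, had 459, 517.5 and 511 CPM in Naringin, against 458, 442 and 495 CPM in Control. H2-M3, which presents N-formylated peptides of bacteria, had 100.2, 117 and 114.5 CPM in Naringin, against 98.0, 109 and 117 CPM in Control. Naringin 2 and 3 were the highest libraries for H2-T23, while Naringin 1 lay within the Control range, and for H2-M3 the values of both groups spanned nearly the same range. The log2 folds were 0.09 for H2-T23 and 0.03 for H2-M3. The other H2-Q, H2-T and H2-M members tested were H2-Q4, H2-Q5, H2-T10, H2-T22 and H2-M2, with log2 folds of -0.06, -0.06, -0.01, 0.0034 and -0.19. Without Control 3 the log2 fold was -0.18 for H2-Q4 and 0.13 for H2-T22. H2-M2 spread widely, at 41.5, 48.3 and 68.4 CPM in Naringin, against 67.5, 68.5 and 43.9 CPM in Control, and its log2 fold was -0.39 without Control 3. H2-Q5, at 83.5, 81.7 and 90.4 CPM in Naringin, against 101, 101 and 68.0 CPM in Control, overlapped only through Control 3. Without that library its log2 fold was -0.24, with a limma adjusted p of 0.44.

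Of the nonclassical members, 2 lie outside the MHC. Cd1d1, which presents lipids to natural killer T cells, had 34.8, 38.9 and 38.2 CPM in Naringin, against 36.8, 41.6 and 37.8 CPM in Control. Mr1, which presents microbial vitamin B metabolites to MAIT cells, had 20.8, 18.0 and 14.4 CPM in Naringin, against 16.8, 19.3 and 16.2 CPM in Control. The log2 folds were -0.05 for Cd1d1 and 0.01 for Mr1.

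The classical class II genes code for the chains that present peptides to CD4 T cells. H2-Aa, the alpha chain of I-A, had 2408, 2823 and 2376 CPM in Naringin, against 2166, 2490 and 3271 CPM in Control. H2-Ab1, the beta chain of I-A, had 1534, 1787 and 1806 CPM in Naringin, against 1552, 1657 and 1852 CPM in Control. H2-Eb1, the beta chain of I-E, had 1800, 2001 and 1820 CPM in Naringin, against 1635, 1746 and 2429 CPM in Control. Control 3 was the highest library in all 3, and all Naringin values lay between the lowest and the highest Control value for H2-Aa and H2-Eb1. The log2 folds were -0.04, 0.02 and -0.03, and 0.12, 0.09 and 0.15 without Control 3. H2-Eb2, a less abundant relative, had 101, 127 and 103 CPM in Naringin, against 99.97, 107 and 93.1 CPM in Control, a log2 fold of 0.13. Over the 4 genes the median log2 fold was -0.0042, and 0.10 without Control 3, when all 4 were above 0.

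H2-Ea, the alpha chain of I-E, was close to absent. It had 0, 3 and 1 reads in Naringin, against 1, 1 and 0 reads in Control, while its partner H2-Eb1 had at least 1635 CPM in every library. As background, mice of the b haplotype, such as C57BL/6, carry a deletion in the Ea promoter and make no I-E alpha chain.

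Of the class II editors, H2-DMa had 177, 208.5 and 215 CPM in Naringin, against 178, 184 and 233 CPM in Control, a log2 fold of 0.02, or 0.14 without Control 3. The beta chain genes H2-DMb1 and H2-DMb2 had log2 folds of 0.10 and 0.11, with H2-DMb2 at 462 ± 61.7 CPM in Naringin and 427 ± 30.8 CPM in Control (SD, n = 3 each). H2-DM pushes the invariant chain remnant out of the groove, and H2-O, made mainly in B cells, holds H2-DM back. H2-Oa had 71.6, 96.2 and 89.0 CPM in Naringin, against 64.6, 80.4 and 105.5 CPM in Control, a log2 fold of 0.05, or 0.23 without Control 3. H2-Ob had 479, 592.5 and 558 CPM in Naringin, against 439, 531 and 437 CPM in Control. Naringin 2 and 3 were above every Control library and Naringin 1 was not, and the log2 fold was 0.21, with a 95% interval of -0.12 to 0.55. Cd74 had 3981, 4589 and 4865 CPM in Naringin, against 4477, 4374 and 5275 CPM in Control, a log2 fold of -0.07, or 0.01 without Control 3. Naringin 1 was its lowest library and Control 3 its highest. Over these 6 genes the median log2 fold was 0.08, with 5 above 0, and 0.15 without Control 3. Without Control 1 it was -0.0007.

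The summed class II values are set beside cell markers in the plot of summed CPM. The 4 classical class II genes summed to 5843, 6737 and 6104 CPM in Naringin, against 5452, 6001 and 7645 CPM in Control. The 8 B cell markers summed to 3706, 4559 and 4552 CPM in Naringin, against 3745, 4156 and 3767 CPM in Control, and Control 3 was not among the highest. The 8 dendritic cell markers summed to 608, 610.0 and 560.0 CPM in Naringin, against 604.5, 599 and 719 CPM in Control, with Control 3 highest. Ccr7 was the largest part of this sum, at 268, 299 and 332 CPM in Naringin, against 302.5, 285.5 and 381 CPM in Control. None of the 16 B and dendritic cell markers was at 0 in every library, and limma called 0 of them. Log2 folds were above 0 in 7 of the 8 B cell markers, against 56.7% of all tested genes. They were below 0 in 6 of the 8 dendritic cell markers, against 43.3%. Of the 16, 1 had an unadjusted limma p under 0.05 and groups that did not overlap: Cd209a, lower in Naringin, at p 0.024. Over all tested genes those shares were 0.457% and 2.29% in that direction. The 8 macrophage markers summed to 2402, 1462 and 661 CPM in Naringin, against 852.5, 992 and 1785 CPM in Control, and so spread more within the groups than between them. The part of these cells in the class II values was not tested.

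**Figure D4:**
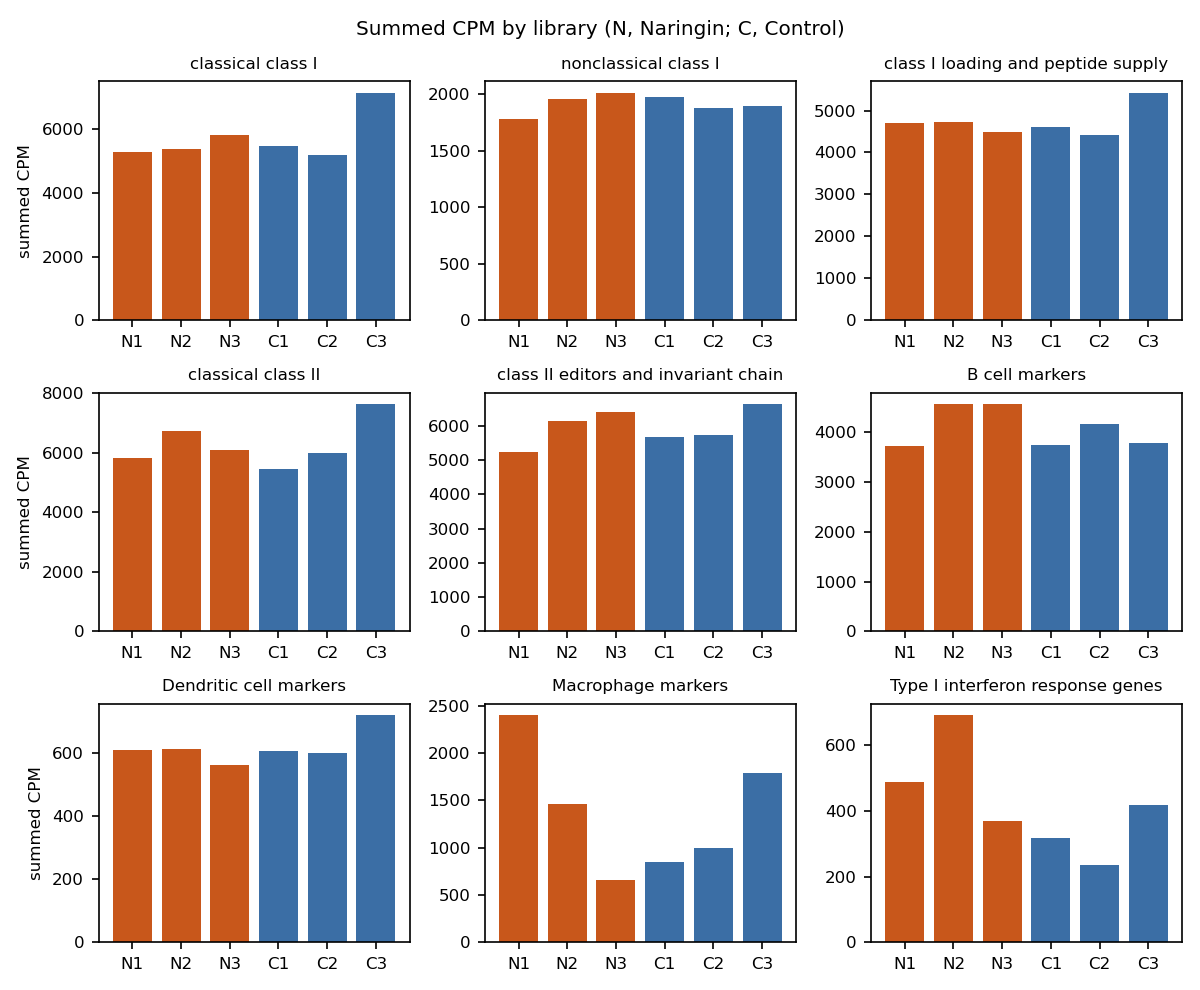
Summed CPM in each library for 5 groups of members, for B cell, dendritic cell and macrophage markers and for type I interferon response genes, Naringin left (N1 to N3) and Control right (C1 to C3). Classical class I and class II sums are highest in Control 3, while the interferon genes are highest in Naringin 2.

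The 2 coactivators were low in Control 3, where H2-K1 and H2-Aa were high. Nlrc5 had 242.5, 269 and 266 CPM in Naringin, against 327.5, 289 and 208 CPM in Control. Ciita had 318, 356 and 309 CPM in Naringin, against 332, 342 and 216 CPM in Control. In both genes Control 3 was the lowest library, at 0.746 times the mean of the other 5 for Nlrc5 and 0.652 times for Ciita, whereas H2-K1 stood at 1.43 times and H2-Aa at 1.33 times. Both have long exon totals, 8493 bases for Nlrc5 and 9535 bases for Ciita, as has Erap1 with 7280 bases. Over the 37 tested members with an exon length, its Spearman correlation with the log2 difference of Control 3 from the other 5 was -0.208. Over 13956 tested genes it was -0.471. Over the members the median log2 difference of Control 3 from the other 5 was 0.14 in the shorter 18 and 0.10 in the longer 19. The part of exon length in the low values was not tested. The log2 fold was -0.06 for Nlrc5 and 0.17 for Ciita, and -0.25 and -0.04 without Control 3. For Nlrc5 all 3 Naringin values were then below both remaining Control values, with a limma adjusted p of 0.473. Among the 38 members Control 3 was the highest library in 18 and the lowest in 8, against 24% and 36.6% of all tested genes.

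**Figure D5:**
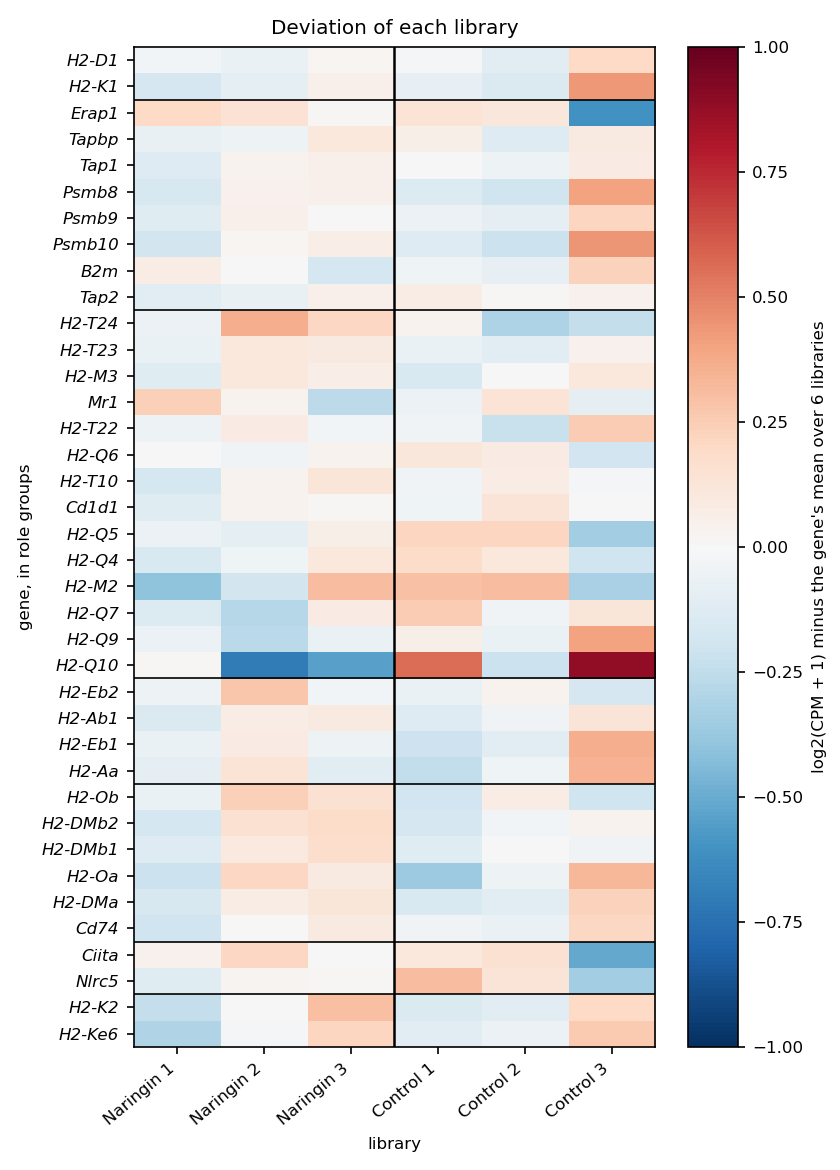
Deviation of each library from the gene's mean over 6 libraries, in log2(CPM + 1), for the 38 tested members in their role groups, Naringin libraries left of the line and Control libraries right. Control 3 is red for H2-K1, Psmb8, Psmb10, H2-Aa and H2-Eb1 and blue for Erap1, Ciita and Nlrc5.

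The 2 remaining tested symbols fell in no role group: H2-Ke6, which encodes a steroid dehydrogenase and lies in the MHC, and H2-K2. H2-Ke6 averaged 106 ± 18.7 CPM in Naringin and 110.4 ± 15.8 CPM in Control, and H2-K2 82.4 ± 15.8 CPM in Naringin and 79.8 ± 11.1 CPM in Control (SD, n = 3 each). The 13 members under 1 CPM were H2-Ea, H2-Bl, H2-Q1, H2-Q2, H2-Q3, H2-T3, H2-M5, H2-M9, H2-M10.2, H2-M10.6, H2-M11, H2-Pa and H2-Pb. They had 1 to 68 reads each over all libraries, 126 in Naringin and 119 in Control together. In 12 of the 13 the groups overlapped. The exception was H2-T3, which encodes the thymus leukaemia antigen, with 6, 1 and 2 reads in Naringin, against 0, 0 and 0 in Control. How often groups fail to overlap in other genes under 1 CPM was not counted. With 9 reads in all, no difference is read from it.

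Of the other genes of the pathway, none was called. Of 10 on the class I side, 5 had log2 folds above 0 and 5 below, with a median of 0.02, and limma called 0. Of 13 on the class II side, 10 were above 0 and 3 below, with a median of 0.13, and limma called 0. Of all tested genes 56.7% were above 0 and 43.3% below, with a median of 0.02. None of the 23 had groups that did not overlap, against 5.65% of all tested genes, and 0 had an unadjusted p under 0.05 in limma, against 1.43%. Among those with the smallest p above 0 were Marchf1 and Nfya. Marchf1, a ubiquitin ligase that takes class II off the surface, averaged 123 ± 22.2 CPM in Naringin and 100.5 ± 26.0 CPM in Control (SD, n = 3 each), a log2 fold of 0.31, or 0.08 without Control 3. Nfya, a subunit of the CCAAT-binding factor, averaged 109.8 ± 7.57 CPM in Naringin and 98.1 ± 13.6 CPM in Control (SD, n = 3 each), a log2 fold of 0.17, or 0.06 without Control 3. Of the 23 genes, the 3 with the smallest p among those below 0 were Rfxank, Psme2 and Rfxap. Rfxank and Rfxap, both subunits of the RFX complex on the X box, had log2 folds of -0.18 and -0.04, or -0.08 and 0.13 without Control 3. Psme2, a subunit of the PA28 proteasome activator on the class I side, had a log2 fold of -0.13, or 0.01 without Control 3.

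Interferon response genes are given beside the MHC genes, since interferons induce both. In a list of 9 type I interferon response genes, chosen with earlier results of these samples known, all 9 had log2 folds above 0, with a median of 0.79, limma called 0, 6 had an unadjusted p under 0.05, against 0.975% of all tested genes in that direction, and 3 (Ifit1, Oas2 and Cmpk2) had groups that did not overlap, against 3.36%. The list summed to 489, 692 and 370.5 CPM in Naringin, against 319, 237 and 417 CPM in Control, with Naringin 2 highest and Control 2 lowest. For 9 genes of the interferon gamma response the median log2 fold was 0.16, with 9 above 0 and 0 called by limma. Of these, 2 had an unadjusted limma p under 0.05, against 0.975% of all tested genes in that direction. The groups did not overlap in 1, against 3.36%. Of all tested genes 56.7% had a log2 fold above 0. The difference between these lists and the MHC genes was not tested.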

How the data were processed

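Bulk RNA sequencing of mouse inguinal lymph nodes was deposited as 1 table of CPM per gene for 3 Naringin and 3 Control samples. Per the submitters' processing notes, the authors used Trimmomatic 0.39, STAR 2.7.9a, featureCounts of Subread 1.6.0, edgeR 3.40.0 and the mm39 build. No source used here gives the annotation, strand setting or treatment of shared reads. The deposited CPM values were whole multiples of 1 read in 100% of values above 0 (tolerance 0.01 reads), so reads were recovered from them. Here log2(CPM + 1) of the 14873 genes averaging 1 CPM or more was fitted with limma 3.58.1 (trend, robust) in R 4.3.3 and adjusted by Benjamini-Hochberg, taking 0.05 as the threshold. A fold on this scale understates changes of low genes. The script was tested on simulated data.

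Alternatives were a pseudocount of 0.25 CPM, no filter, TMM and median-of-ratios scaling, a replicate block, edgeR 4.0.16 and DESeq2 1.42.0 on recovered reads, each library left out, and a correction for exon length added after seeing the data. The members and lists were chosen with earlier results of these data known. Every tested member is named, with values in every library for the main chains, their regulators and the 8 members with the smallest p. Members under 1 CPM are given by reads, and of 23 other pathway genes the text names 3 per direction, by smallest p, except 1 that is not reported here. Exon lengths came from GENCODE M21 and promoters from RefSeq, both on GRCm38, and were matched by symbol. The libraries differed beyond sampling noise in every pair, with a chi-square per degree of freedom of at least 7.68, and none was a duplicate.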

Additional observations from a re-analysis of the deposited data

How the results depend on the processing

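No member was called under any of the 14 alternatives. The smallest adjusted p of a member, by limma unless edgeR or DESeq2 was the alternative, was 0.44 without Control 3, 0.995 without Control 2 and 1 under the others, after rounding. Over all genes, DESeq2 called 1 gene higher and 2 lower, where limma called 0. With single libraries left out, 0 to 1 genes were called higher and 0 lower, and the 1 appeared without Control 3. The median log2 fold of the nonclassical class I genes was -0.0315, and -0.0851 without Control 3 to 0.0106 without Control 2. The cause was not tested.

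Of the 38 members, 34 kept the sign of their log2 fold under the 8 alternatives that left out no library. Among the 8, the replicate block and the fit without a filter could not change a member's log2 fold. The members that changed sign were near 0. H2-T22 was -0.0035 with TMM, -0.0166 with median-of-ratios scaling, -0.0233 in edgeR, -0.0352 in DESeq2 and -0.0163 with the exon length correction. H2-Ab1 was -0.0016 with median-of-ratios scaling and -0.0038 in DESeq2. H2-DMa was -0.0086 in DESeq2. Mr1 was -0.0054 with median-of-ratios scaling and -0.0052 with the exon length correction. The cause was not tested.

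With single libraries left out, 12 members kept their sign (Cd1d1, H2-DMb1, H2-DMb2, H2-Eb2, H2-M2, H2-Ob, H2-Q10, H2-Q7, H2-Q9, H2-T23, H2-T24 and Tap2) and 26 did not. The log2 folds of the 26 ran as follows: B2m -0.1244 to 0.0303, Cd74 -0.1345 to 0.0122, Ciita -0.0438 to 0.2860, Erap1 -0.0059 to 0.3661, H2-Aa -0.1752 to 0.1222, H2-Ab1 -0.0398 to 0.0942, H2-D1 -0.1190 to 0.0323, H2-DMa -0.0515 to 0.1421, H2-Eb1 -0.1379 to 0.1474. Those of the next were H2-K1 -0.2453 to 0.0420, H2-K2 -0.1034 to 0.1679, H2-Ke6 -0.1885 to 0.0669, H2-M3 -0.0329 to 0.1038, H2-Oa -0.1149 to 0.2340, H2-Q4 -0.1751 to 0.0164, H2-Q5 -0.2438 to 0.0376, H2-Q6 -0.1023 to 0.0508, H2-T10 -0.0728 to 0.0721. The last were H2-T22 -0.1053 to 0.1306, Mr1 -0.1040 to 0.1466, Nlrc5 -0.2482 to 0.0788, Psmb10 -0.1858 to 0.1398, Psmb8 -0.1497 to 0.1491, Psmb9 -0.0975 to 0.0568, Tap1 -0.0601 to 0.0284, Tapbp -0.0769 to 0.0301.

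No sign was seen that equal replicate numbers paired the libraries, though 3 libraries a group are too few to exclude it. Same-numbered Naringin and Control libraries had correlations of deviations of -0.2575, -0.019 and -0.2695, and no library correlated best with its own number. With the replicate block 0 genes were called in either direction. In this balanced design the block cannot change a log2 fold, so the folds tell nothing about pairing.

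With 3 libraries a group, a member's 95% interval reached 0.265 to 0.727 log2 units to either side, so smaller differences could not be told from 0. These intervals are not adjusted for the number of genes, and larger differences could also go uncalled. H2-Q10, with a log2 fold of -0.82, had a limma adjusted p of 0.9996.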

Other observations

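Among the nonclassical class I genes, H2-M2, H2-Q4, H2-Q5 and H2-Q6 shared a pattern over the libraries, chosen after their values were seen. H2-Q4 had 443, 480.0 and 530.2 CPM in Naringin, against 561, 530.0 and 430.3 CPM in Control. The lowest 3 libraries of H2-M2 and H2-Q4 were Naringin 1, Naringin 2 and Control 3, which were also the 3 with the highest macrophage marker sums (2402, 1462 and 1785 CPM). For H2-Q5 and H2-Q6 the same 3 libraries were lowest, though H2-Q6 differed little between Naringin 1 at 39.9 CPM and Naringin 3 at 40.9 CPM. How often these 3 libraries were lowest over all tested genes was not counted. The part of macrophages in these values was not tested.

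The T cell markers summed to 1369, 1321 and 1741 CPM in Naringin, against 1728, 1614 and 1777 CPM in Control. Of the 8 log2 folds, 7 were below 0, against 43.3% of all tested genes. At an unadjusted limma p under 0.05 there was 1 gene, Cd5, lower in Naringin, against 0.457% in that direction. Its groups also did not overlap, against 2.29%. The 4 red blood cell genes summed to 52.9, 55.0 and 50.9 CPM in Naringin, against 33.7, 29.4 and 45.5 CPM in Control. All 4 had log2 folds above 0, against 56.7% of all tested genes, with 3 at an unadjusted p under 0.05, against 0.975% in that direction, and 2 whose groups did not overlap, against 3.36%. The 4 adipocyte genes summed to 19.2, 18.7 and 5.04 CPM in Naringin, against 51.8, 20.5 and 12.5 CPM in Control, with 3 of 3 tested log2 folds below 0 and 0 at an unadjusted p under 0.05. Limma called 0 genes in each of these lists.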
